A study of Mus musculus with 12 samples.

Results

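The Slc25a genes encode the mitochondrial solute carriers. Members were the protein-coding mouse genes whose symbol is Slc25a followed by a number, and 47 of the 49548 genes in the count tables met this definition after matching by Ensembl identifier. They lay on 19 chromosomes, and 4 of them (Slc25a5, Slc25a14, Slc25a43 and Slc25a53) were on chromosome X.

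Carriers of this family mostly sit in the inner mitochondrial membrane and exchange nucleotides, phosphate, amino acids, carboxylates, cofactors and metal ions between the cytosol and the matrix. Most are built from a triplicated repeat that holds a short signature, in which a proline is followed by an acidic and then a basic residue. In neurons, the aspartate/glutamate and oxoglutarate carriers form the membrane limb of the malate-aspartate shuttle, which brings reducing equivalents from glycolysis to the respiratory chain.

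RNA was measured by sequencing in the lumbar spinal cord of untreated mice aged 30 days, with 1 library per mouse. The 8 MFN2 mice were hemizygous MitoCharc1 animals of a B6;D2 strain with the transgene Tg(Eno2-MFN2*R94Q), line L51Ugfm/J. They carried the human R94Q form of MFN2, a mutation of Charcot-Marie-Tooth disease type 2A (CMT2A), under the neuron-specific rat Eno2 promoter, and they kept both copies of mouse Mfn2. The 4 WT mice did not carry the transgene and were labelled C57BL/6, while the study's methods describe littermates. Because the promoter acts mainly in neurons and the cord holds many other cell types, fewer cells of a type and less RNA per cell cannot be told apart in these bulk samples. Libraries are named by their numbers. Libraries 41 to 43 (MFN2) and 44 to 47 (WT) formed one run of numbers, and libraries 72 to 76 formed another run with MFN2 mice only. For libraries 72 to 76 the genotype and the run of numbers therefore cannot be told apart.

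Each library held 19359454 to 26738930 counts. The Slc25a genes took 0.208% to 0.241% of them. After scaling, their summed level ran from 2128 to 2348 CPM (counts in proportion to the scaled library total) in MFN2 mice (median 2318 CPM) and from 2292 to 2486 CPM in WT mice (median 2319 CPM). The lowest sum belonged to library 43, and the other MFN2 sums lay inside the WT range.

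Library 43 stood apart from the other 11 before any carrier was considered. Its 8 forebrain neuron markers, of which Camk2a was the most abundant, summed to 4685 CPM against 109 to 207 CPM elsewhere. Its 6 caudal Hox genes, which mark the lower cord, summed to 21.1 CPM against 92.1 to 151 CPM, and its 5 motor neuron markers to 29.5 CPM against 127 to 307 CPM. No marker of these lists was at 0 in every library. Its 5 oligodendrocyte markers summed to 7620 CPM against at least 20169 CPM elsewhere. Schwann cell markers reached 200 CPM in library 43 and 204 CPM in library 73, with at most 4.85 CPM in the other libraries. Skeletal muscle markers were highest in libraries 47 (244 CPM) and 73 (265 CPM). Ddx3y, on chromosome Y, was detected in libraries 41, 43 and 44 (66.4 to 89.4 CPM, with Xist at 0.267 CPM or less) and had 0 counts in the other 9, where Xist was at 258 to 402 CPM.

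The ADP/ATP carriers are shown first, because they hold the most abundant members and a relative, Slc25a31, with few counts. The 42 coding bases around their first signature, taken from the GENCODE M21 transcripts on GRCm38 and printed 5′ to 3′ in the coding direction, are given with the signature codons in capitals:
Slc25a4 (chr8:46210812-46210853, minus strand): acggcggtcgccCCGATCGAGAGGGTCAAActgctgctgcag
Slc25a5 (chrX:36795800-36795841, plus strand): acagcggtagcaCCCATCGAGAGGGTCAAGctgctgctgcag
Slc25a31 (chr3:40709100-40709141, plus strand): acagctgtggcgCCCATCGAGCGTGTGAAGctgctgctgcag

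Each stretch lies in 1 exon. In this stretch Slc25a4 and Slc25a5 differed at 5 bases, Slc25a4 and Slc25a31 at 9, and Slc25a5 and Slc25a31 at 6. Over the aligned coding sequence 77.4% of bases were identical between Slc25a4 and Slc25a5, and 66.9% between either of them and Slc25a31. No 75-base window of Slc25a4, the length of a read, recurred in another gene's transcripts, while 27.9% of the windows of Slc25a5 did. The 6 genes that shared them, among them the pseudogene Slc25a5-ps, held 164 counts in all 12 libraries together, against 52484 for Slc25a5. All 3 signatures were found in 27 of the 47 members, 2 in 12 members and 1 in 5, and none was found in Slc25a46, Slc25a51 and Slc25a53 by the letters searched.

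Levels were compared between genes as CPM per kilobase of exon (RPKM). Slc25a4, the ADP/ATP carrier of heart, muscle and brain, was the most abundant member, at 292 ± 27.1 RPKM in WT (mean ± SD, n = 4) and 286 ± 28.9 RPKM in MFN2 mice (n = 8). Slc25a5, an ADP/ATP carrier found in many tissues, followed at 118 ± 8.80 RPKM in WT and 117 ± 16.8 RPKM in MFN2 mice. Slc25a3, which brings phosphate into the matrix, came next at 38.2 ± 1.53 and 35.4 ± 1.91 RPKM. Together the 3 genes held 46.4% ± 1.28 of the family's counts in WT and 46.1% ± 3.05 in MFN2 mice. Because Slc25a3 has exons of several transcripts, its WT level was 132 ± 5.27 RPKM when the length of its main transcript was used, with its place in the order unchanged.

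Below them came Slc25a33, a pyrimidine nucleotide carrier, at 33.7 ± 2.62 RPKM in WT, Slc25a1, the citrate carrier, at 28.0 ± 3.22 RPKM, and Slc25a18, a glutamate carrier, at 27 ± 5.13 RPKM. Slc25a23 (23.9 ± 1.71 RPKM), Slc25a11 (22.2 ± 1.53 RPKM) and Slc25a12 (20.6 ± 1.18 RPKM) came next, and Slc25a39 was the tenth at 18.2 ± 0.893 RPKM. From Slc25a33 to Slc25a39 each gene differed from its neighbour by less than the sum of their SDs in WT except at the last step, from Slc25a12 to Slc25a39. Slc25a46 was the eleventh at 15.4 ± 0.933 RPKM. The order of the genes from the fourth place down changed with the length used, and the sources describe the library kit in differing terms, so levels per length are approximate.

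**Figure D1:**
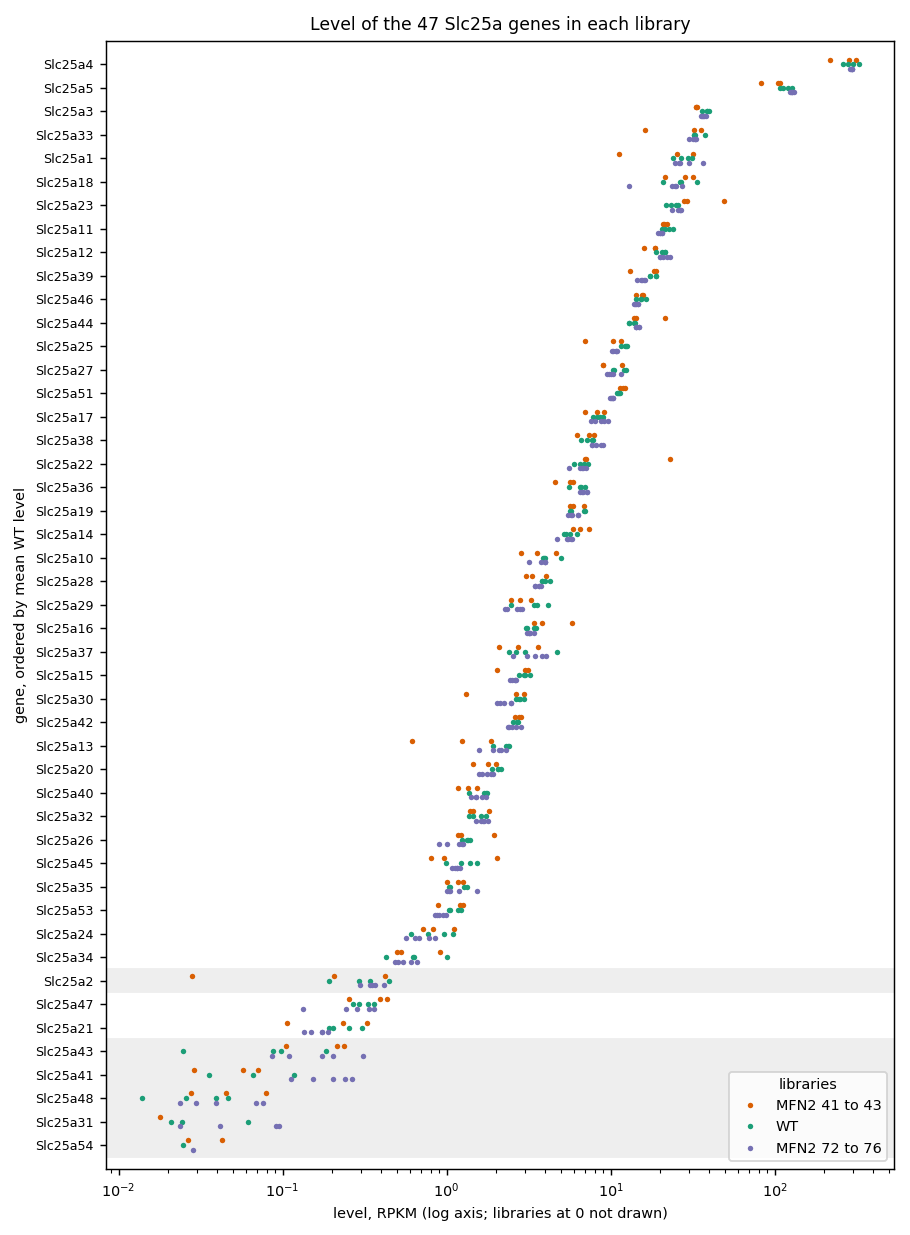
Level of the 47 Slc25a genes in each library, in RPKM on a log axis, with genes ordered by their mean WT level. Each point is 1 library, green for WT, orange for MFN2 libraries 41 to 43 and purple for MFN2 libraries 72 to 76, and grey bands mark the 6 genes that did not pass the filter. Slc25a4 and Slc25a5 lie above all other members in every library.

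A gene was tested when more than 1 CPM was present in at least 3 libraries, and 41 of the 47 members passed. The 6 that did not were Slc25a2, an ornithine carrier, with 114 counts in the 12 libraries together, and Slc25a43 (75 counts), Slc25a41 (41), Slc25a48 (40), Slc25a31 (19) and Slc25a54 (5). Just inside the filter were Slc25a47 with 249 counts and Slc25a21 with 275. The passing members varied little among WT mice, with a median coefficient of variation of 8.38%, and more among MFN2 mice, where it was 13.9% with library 43 included.

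Across all libraries, no carrier differed between genotypes past the threshold. With edgeR's quasi-likelihood test and Benjamini-Hochberg adjustment, 0 of the 41 members were called at an FDR of 0.05, and 0% of the 15942 genes tested were (0 genes). DESeq2 called 200 genes and limma-voom 0, and neither called a member. When the libraries with Ddx3y were left out, edgeR called 2 of 40 members (5%) against 14.1% of 15679 genes. These were Slc25a29 and Slc25a25, in a setting added once the data had been seen. At an unadjusted p under 0.05 stood 3 members, all with lower values in MFN2 mice, which is 7.32% of members against 15% of all genes (7.57% with lower values). With the run of numbers as a covariate there were 11 (26.8%, against 14.9% of all genes in that fit), of which 7 had lower and 4 higher values. With a library left out the number ran from 0 (without WT library 47) to 7 (without library 41). These were 0% against 10.1% of all genes and 17.1% against 21.1%. The genotypes overlapped for each of the 41 members, while 2.04% of all genes had no overlap. The log2 fold change of MFN2 against WT was below 0 for 33 of the 41 members with TMM scaling and for 26 with library size alone, against 49.2% of all genes with TMM scaling. Its median over members was -0.09, beside 0.00 over all genes, with TMM scaling. With library size alone these medians were -0.05 and 0.05. Single members ranged from -0.38 (Slc25a13) to 0.38 (Slc25a22) with TMM scaling.

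The 3 members at an unadjusted p under 0.05 carry a basic amino acid, ATP-Mg and carnitine. Slc25a29, a carrier of arginine and lysine, was at 8.86 ± 1.79 CPM in WT (n = 4) and 6.99 ± 0.841 CPM in MFN2 mice (n = 8), a log2 fold change of -0.34 (SE 0.13, adjusted p = 0.294 by edgeR). Its lowest WT library, 44, was at 6.46 CPM, inside the MFN2 range of 5.92 to 8.48 CPM. Slc25a25, an ATP-Mg/phosphate carrier, was at 96.3 ± 3.59 and 80.7 ± 10.9 CPM (log2 fold change -0.25, SE 0.10, adjusted p = 0.300 by edgeR), and Slc25a20, the carnitine/acylcarnitine carrier of fatty acid oxidation, at 9.91 ± 0.499 and 8.48 ± 0.901 CPM (log2 fold change -0.22, SE 0.09, adjusted p = 0.306 by edgeR). The next members with lower values were Slc25a28, a mitochondrial iron carrier (log2 fold change -0.16, SE 0.08), and Slc25a39, which is required for glutathione import (-0.19, SE 0.09). The members with the lowest p among those with higher values were Slc25a23 (log2 fold change 0.30, SE 0.17), Slc25a44 (0.19, SE 0.11), Slc25a38 (0.10, SE 0.09), Slc25a22 (0.38, SE 0.35) and Slc25a16 (0.16, SE 0.16), none with an adjusted p under 0.39 in edgeR. Without library 43, Slc25a44 was at 0.10 and Slc25a16 at 0.03, and without WT library 45 Slc25a38 was at 0.05.

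**Figure D2:**
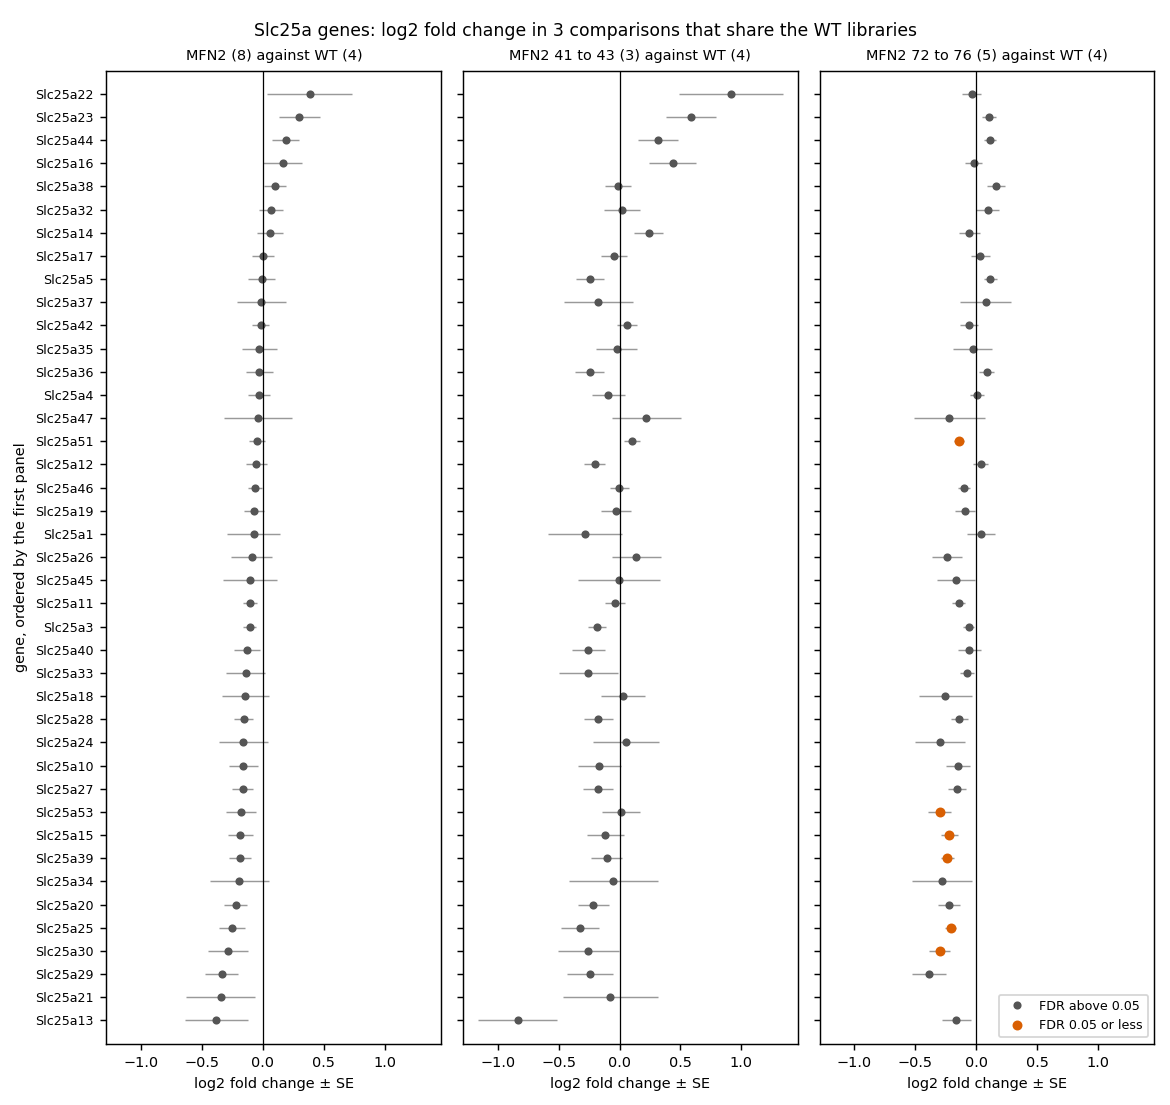
Log2 fold change with its SE (edgeR) for the Slc25a genes that passed the filter, for all MFN2 libraries, for libraries 41 to 43 and for libraries 72 to 76, each against the same 4 WT libraries. Orange points passed an FDR of 0.05, which 0, 0 and 6 members did with TMM scaling, whereas in libraries 72 to 76 library size alone gave 4 members higher and 2 lower and upper-quartile scaling 1 higher and 3 lower.

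The 2 runs of MFN2 libraries were then compared with WT separately. They share the 4 WT libraries, so that their values are given side by side. Libraries 41 to 43 gave 0 of 41 members called and 0.00658% of 15200 genes (1 gene). Unadjusted p values under 0.05 were found for 3 members by edgeR, or 7.32%, against 7.12% of genes, and DESeq2 and limma-voom also called 0 members. Values did not overlap with WT for 6 members, against 8.97% of genes. Slc25a23 and Slc25a51 were higher (2 of 41 against 4.68% of genes), and Slc25a5, Slc25a3, Slc25a12 and Slc25a13 lower (4 of 41 against 4.29%). Libraries 72 to 76 gave 6 of 40 members called, against 23.8% of 15743 genes (3746 genes, 1746 higher and 2000 lower). The share of carriers called was 15%, below that of all genes, and near the share of genes called lower, 12.7%. All 6 were lower in MFN2 mice with TMM scaling, whereas library size alone gave 2 lower and 4 higher among the members, and 2822 higher and 1345 lower among all genes. Upper-quartile scaling gave 3 lower and 1 higher among the members, and 2003 higher and 1775 lower among all genes. The log2 fold change was below 0 for 29 of the 40 members with TMM scaling, 22 with library size alone and 28 with upper-quartile scaling, against 50.2% of genes with TMM scaling. The median over members was -0.10 with TMM scaling, -0.02 with library size alone and -0.07 with upper-quartile scaling. Over all genes the median was -0.0007, 0.07 and 0.02 in that order, so it moved with the scaling too. Values did not overlap with WT for 8 of the 40 members, against 19.8% of genes, and of these 7 were lower (10.3% of genes) and 1, Slc25a44, was higher (9.5% of genes).

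In libraries 41 to 43 the largest log2 fold changes were those of Slc25a22 (0.92, SE 0.42), Slc25a23 (0.59, SE 0.21), Slc25a16, a carrier linked to coenzyme A (0.44, SE 0.19), Slc25a44 (0.32, SE 0.16) and Slc25a14 (0.24, SE 0.12) upward. Downward they were those of Slc25a13 (-0.84, SE 0.32), Slc25a25 (-0.32, SE 0.16), Slc25a1 (-0.28, SE 0.30), Slc25a40 (-0.26, SE 0.14) and Slc25a30 (-0.26, SE 0.25). Each had an edgeR adjusted p of at least 0.622. All 10 were nearer to 0 without library 43, or past it. The upward ones were then 0.08 for Slc25a22, 0.26 for Slc25a23, 0.16 for Slc25a16, 0.08 for Slc25a44 and 0.14 for Slc25a14, and the downward ones -0.52 for Slc25a13, -0.14 for Slc25a25, 0.04 for Slc25a1, -0.17 for Slc25a40 and 0.02 for Slc25a30. In libraries 72 to 76 the upward ones were smaller, with Slc25a38, a glycine carrier needed for haem synthesis, at 0.16 (SE 0.07), Slc25a5 at 0.12 (SE 0.05), Slc25a44 at 0.11 (SE 0.05), Slc25a23 at 0.11 (SE 0.06) and Slc25a32 at 0.10 (SE 0.09), none past the threshold with TMM scaling. Without WT library 47 Slc25a23 was at 0.06 and Slc25a32 at 0.16, and without WT library 45 Slc25a32 was at 0.05. With library size alone Slc25a38 (adjusted p = 0.0403), Slc25a5 (0.0245), Slc25a44 (0.0122) and Slc25a23 (0.0452) were called higher. The downward ones were led by Slc25a29 (-0.39, SE 0.14, edgeR adjusted p = 0.0602), which was not called. Without WT library 44, its lowest WT library, Slc25a29 was called (-0.52, adjusted p = 0.00716), as it was with Xist as a covariate (adjusted p = 0.00745) and with no filter (adjusted p = 0.0284). The downward ones also included Slc25a24 (-0.30, SE 0.20) and Slc25a34 (-0.28, SE 0.24). Single WT libraries moved both. Slc25a24 was at -0.16 without WT library 44 and -0.43 without WT library 45, and Slc25a34 at -0.02 without WT library 46 and -0.44 without WT library 47.

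Slc25a25 and Slc25a39 were the members called lower in libraries 72 to 76 under the main setting and each of 17 alternatives, of which leaving out WT library 44 and leaving out the libraries with Ddx3y are the same here. Slc25a25 was at 91.1, 96.8, 99.4 and 97.9 CPM in WT libraries 44 to 47 and at 84.4, 80.1, 81.7, 85.4 and 85.4 CPM in libraries 72 to 76. Every one of the 5 lay below the lowest WT value, and libraries 41 and 43, at 81.8 and 55.3 CPM, did as well, while library 42, at 91.6 CPM, was just inside the WT range. The log2 fold change in libraries 72 to 76 was -0.21 (SE 0.04, edgeR adjusted p = 0.00636). In libraries 41 to 43 it was -0.32 (SE 0.16, edgeR adjusted p = 0.622) and the difference between the runs was 0.11 (SE 0.13, edgeR adjusted p = 0.637). Exons of Slc25a25 share 379 bases with Naif1 on the opposite strand, and the strand setting of the counts is not given in the sources used here.

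Slc25a39 was at 47.9, 52.2, 52.2 and 48 CPM in WT libraries 44 to 47 and at 42.7, 44.6, 39.7, 42 and 44 CPM in libraries 72 to 76. These 5 values were all below the WT values. Libraries 41 and 42 were at 50.4 and 52.0 CPM, within the WT range, and library 43 at 36.1 CPM. The log2 fold change in libraries 72 to 76 was -0.24 (SE 0.05, edgeR adjusted p = 0.00805). In libraries 41 to 43 it was -0.10 (SE 0.13, edgeR adjusted p = 0.760).

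The other 4 members called lower in libraries 72 to 76 were Slc25a30, a relative of the uncoupling proteins (log2 fold change -0.30, SE 0.08, edgeR adjusted p = 0.0227), Slc25a51, the NAD carrier (-0.14, SE 0.04, adjusted p = 0.0313), Slc25a15, an ornithine carrier (-0.22, SE 0.07, adjusted p = 0.0351), and Slc25a53 (-0.30, SE 0.09, adjusted p = 0.0362). These calls depended on the setting, and of the 17 alternatives 11 called Slc25a30, 9 Slc25a51, 7 Slc25a15 and 5 Slc25a53. Slc25a51 was at 59.9 to 62.9 CPM in WT, 63.0 to 67.8 CPM in libraries 41 to 43 and 54.4 to 57.0 CPM in libraries 72 to 76. Its 3 sets of values thus did not overlap, and the MFN2 runs lay on opposite sides of WT. Slc25a51 shares 125 exon bases with Gm25692 on the same strand, and 1.17% of its 75-base windows recur in 24 other genes that held 156306 counts against its own 16422, so that some of its counts may be uncertain. Slc25a53, on chromosome X, was not called when Xist was a covariate (adjusted p = 0.0694) nor when libraries with Ddx3y were left out (adjusted p = 0.0679). Slc25a44, which carries branched-chain amino acids, was the member whose values were all above WT in this run (51.1 to 53.6 CPM against 46 to 50.4 CPM), with an edgeR adjusted p of 0.100. It was called higher with upper-quartile scaling (adjusted p = 0.0486), as with library size alone. In the same libraries all 5 microglial markers and 3 of 5 astrocyte markers were called lower, beside 12.7% of all genes called lower. Of the other cell type lists, 1 neuron and 1 endothelial marker were called lower, and 1 neuron, 1 forebrain and 1 red blood cell marker higher. The part of these markers in the carrier values was not tested. The 5 microglial markers, of which Csf1r was the most abundant, summed to 78.7 to 101 CPM there against 105 to 140 CPM in WT and 102 to 166 CPM in libraries 41 to 43. The 5 astrocyte markers, of which Slc1a2 was the most abundant, summed to 4603 to 6031 CPM against 6346 to 7320 CPM in WT and 5473 to 7979 CPM in libraries 41 to 43. None of these 10 markers was at 0 in every library.

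**Figure D3:**
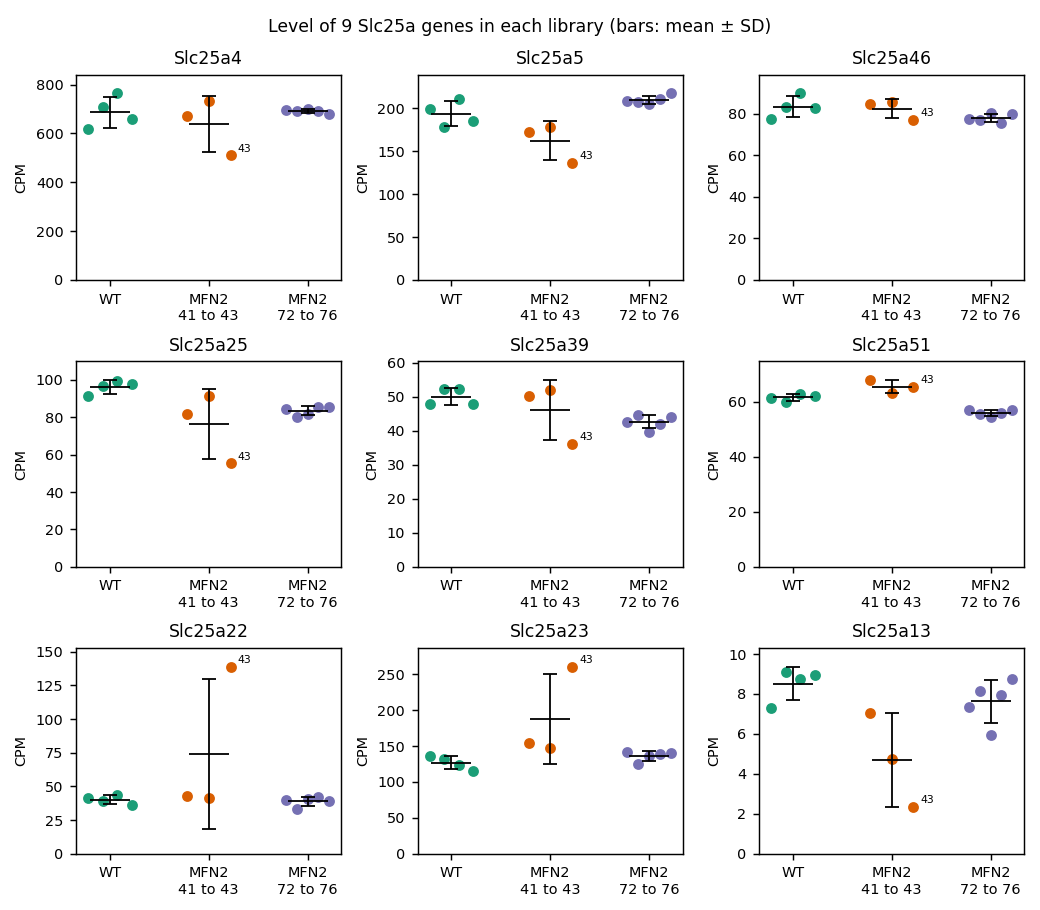
CPM of 9 Slc25a genes in each library, with WT libraries in green, MFN2 libraries 41 to 43 in orange and MFN2 libraries 72 to 76 in purple. Bars are the mean ± SD of each set (n = 4, 3 and 5) and library 43 is marked. Slc25a25 and Slc25a39 lie below all WT libraries in libraries 72 to 76, and Slc25a22, Slc25a23 and Slc25a13 have their extreme value in library 43.

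The promoter of Slc25a25 is printed because its transcript was among the 2 called under each alternative and because a cyclic AMP response element, TGACGTCA, was found in it. RefSeq gives this gene more than 1 start, and the 250 bases before the start of a short transcript, in an intron of the longer ones, hold the element in capitals, followed by a reversed CCAAT box, also in capitals. Gene counts do not tell which start was used.
Slc25a25 promoter, GRCm38.p6 (chr2:32424067-32424316, minus strand): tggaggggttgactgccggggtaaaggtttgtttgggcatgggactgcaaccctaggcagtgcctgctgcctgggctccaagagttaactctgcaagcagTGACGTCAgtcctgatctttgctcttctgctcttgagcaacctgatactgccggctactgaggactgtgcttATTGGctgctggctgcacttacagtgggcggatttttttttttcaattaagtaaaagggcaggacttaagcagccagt

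RefSeq promoters of the same length were found for 36 of the 47 members. TGACGTCA, searched on both strands, was present in 2 of them, Slc25a25 and Slc25a36 (5.56%), against 1.77% of 27025 genes. The E-box CACGTG was present in 7 members (19.4%) against 6.86% of genes, and CCAAT, on both strands, in 18 of the 36 against 37.5%. A gene counted when any of its RefSeq starts had a match, so genes with more starts had more chances. The 27025 genes were not limited to those tested for expression, and the differences in share were not tested. Slc25a36, the other member with TGACGTCA, was not called in libraries 72 to 76 (log2 fold change 0.09, SE 0.06, edgeR adjusted p = 0.332). Whether the element goes with the counts was not tested.

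Among the ADP/ATP and phosphate carriers, levels differed little between genotypes. Slc25a4 was at 617, 708, 765 and 659 CPM in WT libraries 44 to 47, at 672, 735 and 511 CPM in libraries 41 to 43, and between 679 and 700.2 CPM in libraries 72 to 76. Apart from library 43, each MFN2 value lay inside the WT range, and libraries 72 to 76 spread less (SD 8.07 CPM) than WT (SD 63.7 CPM). The log2 fold change over all libraries was -0.03 (SE 0.09), and it was 0.02 with library size alone. Slc25a5 was at 179 to 211 CPM in WT, at 173, 178 and 136 CPM in libraries 41 to 43 and at 205 to 218 CPM in libraries 72 to 76. The first MFN2 run lay below WT and the second overlapped its upper part, and the difference between the runs was 0.35 in log2 fold change (SE 0.08, edgeR adjusted p = 0.0657). Slc25a3 was at 200 to 219 CPM in WT and 184 to 211 CPM in MFN2 mice (log2 fold change -0.11, SE 0.06, edgeR adjusted p = 0.368).

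Carriers of amino acids and of the malate-aspartate shuttle gave 0 calls over all libraries. Slc25a12 (aralar), the aspartate/glutamate carrier of brain and muscle, was at 151 ± 8.69 CPM in WT (n = 4) and 146 ± 16.1 CPM in MFN2 mice (n = 8), and Slc25a11, the oxoglutarate/malate carrier, at 47.1 ± 3.25 and 43.7 ± 1.69 CPM, with log2 fold changes of -0.05 (SE 0.09) and -0.11 (SE 0.06). With a library left out these ran from -0.09 to -0.01 for Slc25a12 and from -0.14 to -0.07 for Slc25a11. Slc25a13 (citrin), the second aspartate/glutamate carrier, was at 7.29 to 9.09 CPM in WT, at 7.06, 4.74 and 2.35 CPM in libraries 41 to 43 and at 5.95 to 8.77 CPM in libraries 72 to 76. The first MFN2 run thus lay below WT throughout, and its log2 fold change of -0.84 (SE 0.32, edgeR adjusted p = 0.622) did not pass the test. Slc25a18, a glutamate carrier, varied widely, from 40.1 to 64.1 CPM in WT and from 24.6 (library 75) to 60.9 CPM in MFN2 mice. Of the 4 soluble enzymes of the shuttle, Got2 was called higher in libraries 72 to 76 (log2 fold change 0.15, SE 0.05, edgeR adjusted p = 0.0432) and Got1, Mdh1 and Mdh2 were not, beside 11.1% of all genes called higher there. The Got2 call was lost with no filter (adjusted p = 0.167), with edgeR's filterByExpr filter (0.0584) and without any one of libraries 72, 74, 75, 76, 45, 46 and 47 (0.0556 to 0.118). None was called over all libraries, where Got1 and Got2 had log2 fold changes of 0.06 each (SE 0.10 and 0.08).

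Slc25a22 and Slc25a23 had the highest fold changes over all libraries, and both values moved with library 43. Slc25a22, the other glutamate carrier, was at 35.9 to 43.7 CPM in WT, at 42.5 and 41.7 CPM in libraries 41 and 42, at 139 CPM in library 43 and at 33.5 to 42.3 CPM in libraries 72 to 76. Without library 43 its log2 fold change of 0.38 was -0.00. Slc25a23, an ATP-Mg/phosphate carrier, was at 115 to 136 CPM in WT, at 154 and 148 CPM in libraries 41 and 42, at 260 CPM in library 43 and at 125 to 142 CPM in libraries 72 to 76. All 3 libraries of the first run exceeded WT, and the log2 fold change over all libraries was 0.30, or 0.15 without library 43. Library 43 had the lowest value of the 12 for 19 of 41 members (46.3%, against 28.6% of genes) and the highest for 7 (17.1%, against 25.9%). Among its lowest were Slc25a1 (24.4 CPM against 52.3 to 79.2 CPM elsewhere), Slc25a33 (30.5 against 56.8 to 71.0 CPM) and Slc25a30 (6.01 against 9.28 to 13.6 CPM). The forebrain and Hox values of library 43 given above stand beside these, and a fit with the forebrain markers as a covariate gave Slc25a22 a log2 fold change of -0.10.

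The uncoupling branch holds relatives of the uncoupling proteins that are known from brain. Slc25a27 (UCP4) was at 44.7 ± 4.20 CPM in WT and 39.9 ± 4.12 CPM in MFN2 mice (log2 fold change -0.17, SE 0.09, edgeR adjusted p = 0.374). Slc25a14 (UCP5) was at 13.3 ± 1.12 and 13.8 ± 1.86 CPM (0.06, SE 0.11), and at 0.00 in log2 fold change without library 43. Both overlapped between genotypes. Ucp2, an uncoupling protein of the same family without an Slc25a symbol, was at 29.4 ± 6.42 CPM in WT and 27.9 ± 4.79 CPM in MFN2 mice (log2 fold change -0.08, SE 0.15).

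Slc25a46 is a family member of the outer membrane whose mutations cause an axonal neuropathy with optic atrophy, and its protein is known to bind mitofusins. It was at 77.4, 83.2, 89.8 and 82.7 CPM in WT libraries 44 to 47, at 84.5, 85.6 and 77.1 CPM in libraries 41 to 43 and at 75.6 to 80.2 CPM in libraries 72 to 76. The genotypes overlapped, and the log2 fold change was -0.07 (SE 0.06, edgeR adjusted p = 0.574). It ran from -0.10 (without WT library 44) to -0.03 (without WT library 46) with a library left out. The mouse gene Mfn2 was at 213 ± 15.1 CPM in WT and 206 ± 12.8 CPM in MFN2 mice (-0.05, SE 0.07). Reads were aligned to the mouse genome, and whether reads of the human transgene entered the Mfn2 counts was not tested. Mtch2, another carrier-like protein of the outer membrane, was at 52.6 ± 1.67 and 50.4 ± 4.37 CPM (-0.06, SE 0.07).

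When the MFN2 runs were compared with each other, which tests the difference between their contrasts with WT, 0 of 40 members were called by edgeR against 2.19% of 15633 genes (342 genes, 157 higher and 185 lower in libraries 72 to 76), and limma-voom gave 0 members as well. With library size alone the genes split into 281 higher and 105 lower, and with upper-quartile scaling into 259 and 113. At an unadjusted p under 0.05 were 9 members, 22.5% against 24.6% of genes. The lowest adjusted p values were those of Slc25a51 (log2 fold change -0.25, SE 0.06, adjusted p = 0.0632), Slc25a5 (0.35, adjusted p = 0.0657) and Slc25a36, a pyrimidine nucleotide carrier (0.33, SE 0.08, adjusted p = 0.0726). DESeq2 called these 3 members, or 7.5% against 11.5% of all genes. Without library 43 edgeR called them together with Slc25a39 (log2 fold change -0.27, adjusted p = 0.0173), or 10% against 15.3% of all genes. The largest log2 fold changes were those of Slc25a22 (-0.97, SE 0.38) and Slc25a13 (0.67, SE 0.30), which had their extreme values in library 43. Next below 0 were Slc25a23 (-0.49, SE 0.19), Slc25a16 (-0.46, SE 0.17), Slc25a47 (-0.44, SE 0.34) and Slc25a26 (-0.38, SE 0.21), which shares 144 exon bases with Lrig1 on the opposite strand. Above 0, Slc25a5 and Slc25a36, given above, were followed by Slc25a1 (0.32, SE 0.28) and Slc25a37 (0.25, SE 0.21). Without library 43 the values were -0.12 for Slc25a22, 0.36 for Slc25a13, -0.16 for Slc25a23, -0.18 for Slc25a16, -0.37 for Slc25a47, -0.10 for Slc25a26, 0.0018 for Slc25a1 and 0.48 for Slc25a37, none of these past the threshold. Without library 41, Slc25a37 was at 0.09, Slc25a13 at 1.09 and Slc25a1 at 0.64, and without library 72 Slc25a47 was at -0.27. Ddx3y was detected in libraries 41 and 43 and had 0 counts in libraries 72 to 76, so the run and this mark largely go together here. With Xist as a covariate edgeR called 1 gene between the runs, and 0 members stood at an unadjusted p under 0.05, against 9.69% of genes.

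Per library, the median log2 difference of the 41 members from the WT mean was 0.01 and -0.02 in libraries 41 and 42, -0.27 in library 43 and -0.06 to -0.17 in libraries 72 to 76. In WT libraries it was -0.04 to 0.05, and for all genes it was -0.02 to 0.01 in each library. WT libraries were set against their own mean, which keeps their values small. Between 26 and 32 of the 41 members were below the WT mean in libraries 72 to 76, where 48.1% to 50.9% of all genes were, beside 28 in library 43 and 20 and 22 in libraries 41 and 42. These medians were not tested, and most of the members in them passed no test.

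**Figure D4:**
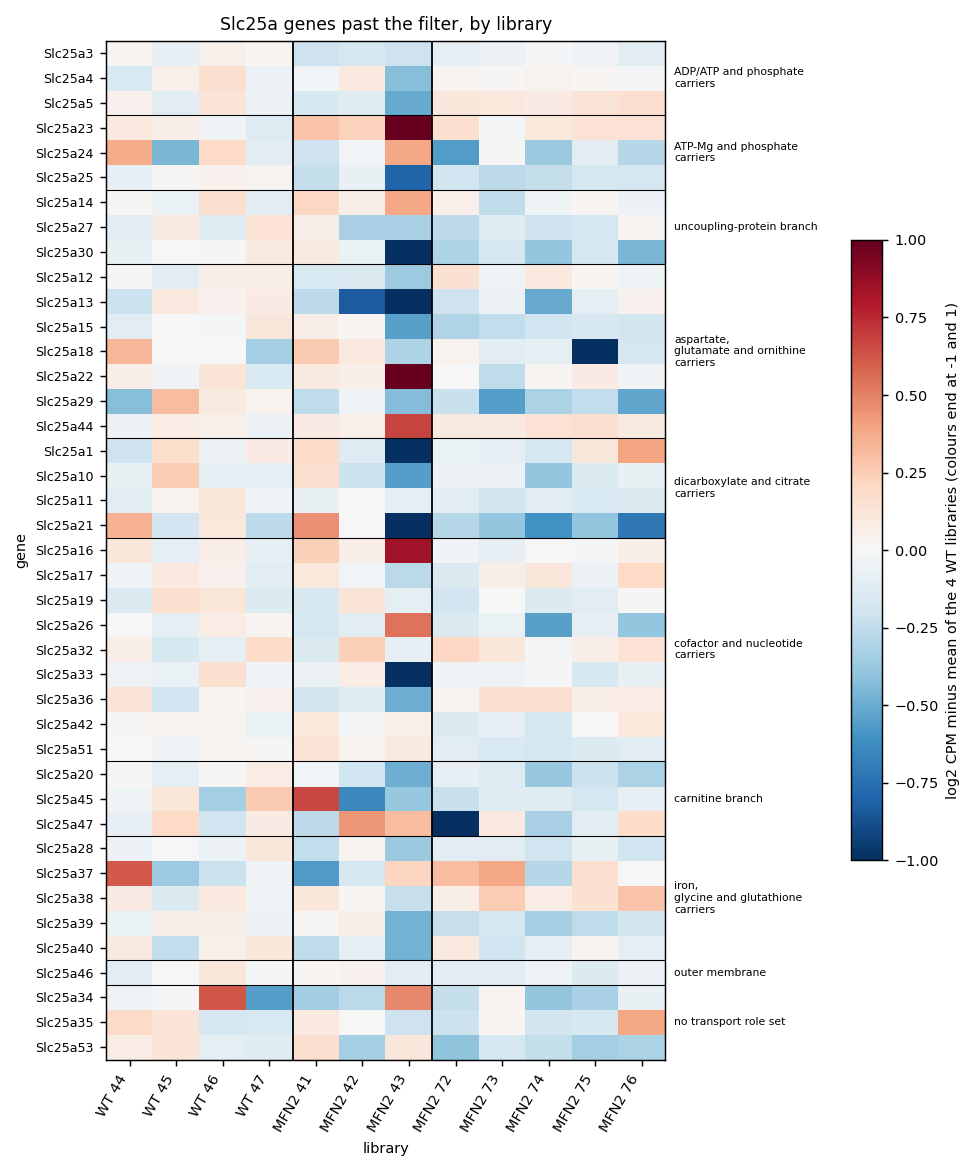
Log2 CPM of the 41 Slc25a genes that passed the filter minus the mean of the 4 WT libraries, by library (columns) and role (rows), with blue below and red above the WT mean and colours ending at -1 and 1. Columns 72 to 76 are mostly pale blue, with medians of -0.06 to -0.17, and column MFN2 43 holds most of the strong colours of both signs.

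By role, calls over all libraries were 0 in every group. The 4 dicarboxylate and citrate carriers had a median log2 fold change of -0.13, the 3 uncoupling-branch members -0.17, the 7 amino acid carriers -0.14, the 5 iron, glycine and glutathione carriers -0.13, the 3 carnitine-branch members -0.11, the 3 ATP-Mg carriers -0.16, the 3 members with no set role -0.18, the 9 cofactor and nucleotide carriers -0.03 and the 3 ADP/ATP and phosphate carriers -0.03. The calls of libraries 72 to 76 were spread over 6 groups with 1 each. These were the ATP-Mg (Slc25a25), glutathione (Slc25a39), uncoupling (Slc25a30), cofactor (Slc25a51) and amino acid (Slc25a15) groups and the members with no set role (Slc25a53).

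Other mitochondrial carriers and channels that lack an Slc25a symbol formed a list of 24 genes, of which Ucp1, Ucp2, Ucp3, Mtch1 and Mtch2 belong to the same protein family under older names. Of the 24, 0 were called over all libraries and 2 stood at an unadjusted p under 0.05 in edgeR, both with lower values in MFN2 mice. Of all genes 15% stood there, 7.57% with lower values. Without the libraries with Ddx3y, edgeR called Vdac1 lower (log2 fold change -0.19, adjusted p = 0.0424), beside 14.1% of all genes called. In libraries 72 to 76, 8 of 24 were called, 6 of them lower, beside 23.8% of all genes called and 12.7% called lower. The lower ones were Vdac1, a pore of the outer membrane, at 194 ± 6.50 CPM against 225 ± 3.83 CPM in WT (log2 fold change -0.21, SE 0.04, edgeR adjusted p = 0.00416), Sfxn5 (-0.29, adjusted p = 0.00774), Slc8b1, the mitochondrial sodium/calcium exchanger (-0.65, adjusted p = 0.00775), Mtch1, Abcb8 and Abcb10. Sfxn2 and Sfxn4 were higher. In the test between runs Slc8b1 (-0.85, adjusted p = 0.0299) and Sfxn5 (-0.34, adjusted p = 0.0444) were called lower by edgeR, beside 1.18% of all genes. Neither was called with Xist as a covariate (adjusted p = 0.280 and 0.291), nor when any library other than 43 was left out (adjusted p of 0.0612 to 0.102 for Slc8b1 and 0.0716 to 0.134 for Sfxn5). Sfxn5 also lost its edgeR call with library size alone (adjusted p = 0.0801) and with upper-quartile scaling (0.0673). The same held with no filter (0.0814) and with edgeR's filterByExpr filter (0.0529), while Slc8b1 kept its call in these settings. Of the 10 genes of the TIM22 pathway, which inserts carriers into the inner membrane, 0 were called over all libraries, where Agk (log2 fold change 0.13, SE 0.06) and Tomm70a (0.09, SE 0.06) had the lowest p, and 1, Timm13, was called lower in libraries 72 to 76 against the same 12.7% of all genes (-0.31, SE 0.07, edgeR adjusted p = 0.0094). In libraries 41 to 43 the log2 fold changes against WT were 0.05 (SE 0.10) for Sfxn5, 0.19 (SE 0.15) for Slc8b1 and 0.10 (SE 0.12) for Timm13, none past the threshold in edgeR.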

How the data were processed

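The authors trimmed the reads, aligned them with STAR to GRCm38 and deposited a table of raw, whole-number counts for each mouse, which is not normalized. The counting tool and strand setting are not given in the sources used here. In each comparison, a gene needed over 1 CPM in 3 or more of its libraries. TMM scaling and edgeR 4.0.16 (R 4.3.3) were used (quasi-likelihood test, legacy form, robust option, Benjamini-Hochberg adjustment over all genes tested, FDR 0.05). Standard errors came from the F statistic. CPM in the text used 1 scaling of the 12 libraries, and log2 CPM a prior count of 2. GENCODE M21 gave symbols, exons and exon lengths, and RefSeq the promoters. DESeq2 1.42.0, limma 3.58.1, other filters, scalings and covariates and each library left out were alternatives. Code was tested on simulated data.

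The named members were those of a fixed list (Slc25a46, 3 to 5, 11, 12, 14, 18, 22, 27), calls, members without overlap, the 5 lowest p in each direction over all libraries and the 5 largest fold changes in each direction elsewhere, outlying members, and the 2 lowest p of each list. In a departure from this rule, cell type markers are given as sums and counts rather than by their lowest p. The lowest p of the other carriers and channels are not reported here. Over all libraries edgeR called 0 cell type markers. In libraries 72 to 76 it called 5 of 5 microglial and 3 of 5 astrocyte markers, all lower, and 2 of 5 neuron markers, 1 lower and 1 higher. It also called 1 endothelial marker lower, 1 forebrain and 1 red blood cell marker higher, and 0 of the other cell type markers. Of all genes 23.8% were called there. Lists and members were chosen with earlier results of these data known. The rule also named proteins, and coding stretches are printed instead; the promoter was chosen after its values were seen. No pair of libraries of a genotype agreed within sampling noise (chi-square per degree of freedom at least 5.34). P values measure the spread between mice.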

Additional observations from a re-analysis of the deposited data

Results flagged for a closer look

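In each genotype, a library was singled out when the gap between the highest or lowest value and its neighbour took more of the group's range than Dixon's critical value allows. This was met in 14 of 82 groups (41 members in 2 genotypes), and chance at 1 in 20 gives 4.1 if the groups were independent. Over all genes the share was 13.9%, against 17.1% for the members, so the number is near that of genes in general. Library 43 held 10 of the 14 (71.4%), and 69.4% over all genes. It was the highest MFN2 library for Slc25a22 (gap 0.914 of the range), Slc25a44 (0.859), Slc25a23 (0.784), Slc25a16 (0.722), Slc25a26 (0.651) and Slc25a34 (0.594), and the lowest for Slc25a33 (0.724), Slc25a4 (0.722), Slc25a25 (0.684) and Slc25a1 (0.527). The other 4 were single high values of Slc25a10 in WT library 45 (17.2 CPM, gap 0.935), Slc25a33 in WT library 46 (71.0 CPM, 0.921), Slc25a45 in MFN2 library 41 (5.61 CPM, 0.676) and Slc25a35 in MFN2 library 76 (5.66 CPM, 0.53). Slc25a35 shares 1151 exon bases with Rangrf on the opposite strand.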

How the results depend on the processing

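Over all libraries, genes called were 200 with DESeq2, 4 with Xist and 13 with the forebrain markers as a covariate, and 2206 when libraries with Ddx3y were left out, a setting added once the data had been seen; with a library left out they were 0 to 19 (19 without library 43). Members called were 0 in each setting except 2 without the Ddx3y libraries (Slc25a29 and Slc25a25, edgeR adjusted p = 0.0359 and 0.0258). These 2 were 5% of members, against 14.1% of all genes in that fit. Members at an unadjusted p under 0.05 were 5 with Xist, 11 (4 higher, 7 lower) with the run of numbers as a covariate, 10 without the Ddx3y libraries and 0 (without WT library 47) to 7 (without library 41) with a library left out. Their shares were 12.2% against 17% of all genes with Xist and 26.8% against 14.9% with the run of numbers. With the run of numbers the genotype term rests on libraries 41 to 43 against WT, since libraries 72 to 76 hold no WT. The shares were 25% against 32.6% without the Ddx3y libraries, 0% against 10.1% without WT library 47 and 17.1% against 21.1% without library 41. Members below 0 were 30 to 34 with a library left out. For libraries 41 to 43, genes called were 0 with no filter or limma-voom, 5 with DESeq2, 2 with Xist and 0 to 2 with a library left out. For libraries 72 to 76, genes called were 2350 to 4517 (without WT libraries 45 and 44) and members 3 with no filter, and 2 (without library 74) to 7 (without WT library 44) with a library left out. These members were 6.38% against 11% of all genes with no filter, 5% against 16.7% without library 74 and 17.5% against 28.9% without WT library 44. Library size alone left Slc25a15, Slc25a30, Slc25a51 and Slc25a53 uncalled (adjusted p = 0.125, 0.0699, 0.265 and 0.098), and upper-quartile scaling left Slc25a15, Slc25a51 and Slc25a53 uncalled (adjusted p = 0.0508, 0.0584 and 0.0525). With a library left out, Slc25a15 lost its call without libraries 72, 73, 74, 75, 45, 46 or 47, Slc25a51 without 73, 74, 75, 46 or 47, Slc25a30 without 74, 45, 46 or 47, and Slc25a53 without any of them but 73 or 47. Between the runs, genes called were 1795 with DESeq2, 1 with Xist and 31 (without library 74) to 2375 (without library 43), and members 3 with DESeq2 and 0 to 4 (without library 43). Direction turned over all libraries with library size alone for Slc25a4 (0.022) and Slc25a5 (0.041), with the run as a covariate for Slc25a18 (0.015) and Slc25a38 (-0.028), with the forebrain covariate for Slc25a4 (0.035), Slc25a5 (0.078), Slc25a12 (0.0061), Slc25a22 (-0.097), Slc25a14 (-0.018) and Slc25a16 (-0.011), and without the Ddx3y libraries for Slc25a5 (0.094), Slc25a12 (0.0055), Slc25a22 (-0.0021) and Slc25a14 (-0.031). With a library left out the ranges that crossed 0 were -0.080 to 0.023 (Slc25a4), -0.048 to 0.047 (Slc25a5) and -0.0041 to 0.466 (Slc25a22) over all libraries, and -0.583 to 0.038 (Slc25a1) and -0.463 to 0.022 (Slc25a30) for libraries 41 to 43. The causes were not tested. No paired analysis was possible because the genotypes share no library number. Members near 1 CPM rest on about 20 counts a library.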
